A study of Mus musculus with 6 samples.

Results

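The phagocyte NADPH oxidase was followed through 5 of its subunit genes, Cybb, Cyba, Ncf1, Ncf4 and Rac2, in mouse leukaemic blasts with and without a Stat3β transgene. The genes were chosen by name as subunits of the enzyme, with earlier results of these data known, and matched 5 of the 24454 gene IDs in the expression table. All 5 passed the filter on low values. Levels are normalized counts, that is, reads per gene scaled by the authors so that libraries of different depth can be compared.

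The libraries came from a mouse model of acute myeloid leukaemia in which the oncogene is MLL-AF9. Donor fetal liver cells on the C57BL/6 background, either from wild-type littermates (WT) or from animals with Mx1-Cre and the Stat3β transgene (Stat3β TG), received the oncogene from a retrovirus and were transplanted into NSG mice. The hosts, immunodeficient animals without lymphocytes that still have myeloid cells, were given poly(I:C) 4 weeks later, and marrow was taken at 6 weeks. Cells were sorted as Venus-positive, MLL-AF9-positive blasts, with 3 libraries in each group. Poly(I:C) switches on Cre in carriers of Mx1-Cre and is itself a trigger of interferon; the protocol describes it for transplanted mice without separating the groups. The WT origin is labelled only as wild-type littermates, so whether those cells carried Mx1-Cre is not stated. Animals' ages are not stated either. The labels do not say whether the replicates are separate donors, and a p-value therefore measures only the spread between these samples, part of which may be technical.

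The oxidase of neutrophils and macrophages moves electrons from NADPH across the membrane onto oxygen and so makes superoxide, the starting point of the respiratory burst that kills microbes. Its membrane core, cytochrome b558, is a pair of gp91phox (Cybb) and p22phox (Cyba). In resting cells the organizer p47phox (Ncf1) and p40phox (Ncf4) wait in the cytosol with their partners, and they join the core together with a Rac GTPase when the cell is stimulated. Loss of a subunit causes chronic granulomatous disease or related immune defects, and the genes are switched on as myeloid cells mature.

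The sequences just before the transcription start are shown for the members found in the RefSeq promoter table, because Stat3β is a form of a transcription factor and the core genes are known targets of myeloid factors. These are Cybb (chrX:9469305-9469574), Cyba (chr8:122432921-122433190) and Ncf1 (chr5:134229606-134229875), all on the minus strand of GRCm38.p6, printed 5′ to 3′ from 250 bases before the start to 20 bases after it. The Cybb start used by that table lies inside the annotated gene span, which begins farther upstream. Capitals mark matches to the motifs searched.
Cybb: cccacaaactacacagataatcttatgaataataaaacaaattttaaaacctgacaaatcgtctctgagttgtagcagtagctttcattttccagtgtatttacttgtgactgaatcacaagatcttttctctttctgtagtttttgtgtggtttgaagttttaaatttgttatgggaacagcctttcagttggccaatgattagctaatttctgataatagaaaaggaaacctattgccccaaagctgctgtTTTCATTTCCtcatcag
Cyba: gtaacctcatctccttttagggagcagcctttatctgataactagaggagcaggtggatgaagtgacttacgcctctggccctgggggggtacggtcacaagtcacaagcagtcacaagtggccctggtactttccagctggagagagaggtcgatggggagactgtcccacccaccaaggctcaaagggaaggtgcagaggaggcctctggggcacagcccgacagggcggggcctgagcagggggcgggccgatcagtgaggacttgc
Ncf1: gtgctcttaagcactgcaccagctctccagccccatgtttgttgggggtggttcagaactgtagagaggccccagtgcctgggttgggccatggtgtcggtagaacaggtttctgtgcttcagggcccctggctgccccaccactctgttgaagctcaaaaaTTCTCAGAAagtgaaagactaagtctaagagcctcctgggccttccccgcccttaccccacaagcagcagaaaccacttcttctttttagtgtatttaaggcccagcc
Both strands were searched for 3 motifs. The first was AGGAAG, a longer form of the GGAA in sites bound by ETS factors such as PU.1. Next came GGAA and GAAA spaced by any 2 bases, a composite of an ETS and an IRF site. The last was TTCNNNGAA, the palindrome bound by STAT dimers. Ncf1 held 1 match to the STAT motif, TTCTCAGAA, whose first base is at −88 from the start. Among 32851 promoters of 270 bases, 7.58% held that motif. Cybb held 1 match to the ETS-IRF composite, on the reverse strand and printed as TTTCATTTCC, which begins 3 bases after the start, and 2.47% of promoters held that motif. None of the 3 windows held AGGAAG, which occurred in 31.8% of promoters, and the Cyba window held none of the 3 motifs. The shorter GGAA was not searched by itself. A match is a run of letters and is not evidence of binding.

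The mean of each of the 5 subunit transcripts was higher in Stat3β TG, but the ratio of the means ranged from 1.03 for Rac2 to 1.76 for Ncf1. Cybb and Ncf1 were the members whose Stat3β TG libraries all lay above the WT libraries. None of the 5 passed the test over all genes. That test was limma on log2(normalized count + 1), with Benjamini-Hochberg adjustment over 12642 genes and a threshold of 0.05, and it called 0 genes, or 0%, in either direction. At an unadjusted p under 0.05 it listed 771 genes, edgeR's quasi-likelihood test 768 and DESeq2 960. After adjustment edgeR called 0 genes and DESeq2 17. In bulk RNA, fewer cells of a type and less RNA per cell cannot be told apart.

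Cybb encodes gp91phox, the chain that carries the flavin and haem groups through which the electrons pass. Its gene (Entrez 13058) spans chrX:9435252-9487766. The WT libraries 1 to 3 held 17018, 8297 and 12740 normalized counts, and the Stat3β TG libraries 1 to 3 held 29969, 17578 and 18773. WT 1 came close to Stat3β TG 2, the groups did not overlap, and Stat3β TG 1 stood well above the other five libraries. The means were 12685 ± 4361 (SD, n = 3) and 22106 ± 6835 (SD, n = 3). The log2 fold change was 0.82 (SE 0.30, 95% confidence interval 0.11 to 1.53), with a limma p of 0.0283 and an adjusted p of 0.668.

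Cybb is X-linked, and the libraries differed in their sex-linked transcripts. Xist, the RNA that silences an X chromosome, had 42699 normalized counts in WT 1 and 45196 in WT 3. It was at 835 in WT 2 and between 19.1 and 71.6 in Stat3β TG. Ddx3y, on the Y chromosome, was at 23.9 and 29.6 in WT 1 and WT 3, at 4959 in WT 2 and between 2943 and 3163 in Stat3β TG. WT 2, the WT library nearer to Stat3β TG in these genes, had the lowest Cybb level of all 6, and also the lowest sum of neutrophil markers (125372 normalized counts). Against WT 2 alone the Cybb log2 fold change was 1.37, with an adjusted p of 0.0675 in limma, which then takes the lone library to vary like those of the other group. The part of the sex-linked split in the Cybb values was not tested.

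Cyba encodes p22phox, which stabilizes gp91phox and gives p47phox its docking site. Its gene (Entrez 13057) spans chr8:122424771-122432940. The WT libraries held 19740, 12488 and 14478 normalized counts, and the Stat3β TG libraries 20159, 19922 and 17277. WT 1 lay inside the Stat3β TG range, while WT 2 and WT 3 lay below it. The means were 15569 ± 3747 (SD, n = 3) and 19119 ± 1600 (SD, n = 3), a log2 fold change of 0.32 (SE 0.20, interval −0.13 to 0.77; limma adjusted p = 0.670). The difference did not exceed the spread between libraries.

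Ncf1 encodes p47phox, the organizer that is phosphorylated on stimulation and leads the cytosolic subunits to the membrane. Its gene (Entrez 17969) spans chr5:134220053-134229628. The WT libraries held 31447, 12768 and 24272 normalized counts, and the Stat3β TG libraries 50178, 38093 and 32484. As for Cybb, the highest WT library, WT 1, was close to the lowest Stat3β TG library without overlapping it. The means were 22829 ± 9423 (SD, n = 3) and 40252 ± 9042 (SD, n = 3). The log2 fold change was 0.89 (SE 0.33, interval 0.11 to 1.67), with a limma p of 0.0296 and an adjusted p of 0.668.

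Ncf4 encodes p40phox, a cytosolic subunit that binds a phosphoinositide on phagosome membranes. Its gene (Entrez 17972) spans chr15:78244164-78262582. The WT libraries held 19549, 8253 and 13679 normalized counts, and the Stat3β TG libraries 21752, 17932 and 14778. WT 1 exceeded both Stat3β TG 2 and Stat3β TG 3. The means were 13827 ± 5649 (SD, n = 3) and 18154 ± 3492 (SD, n = 3), a log2 fold change of 0.46 (SE 0.31, interval −0.26 to 1.18; limma adjusted p = 0.675).

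Rac2 encodes the GTPase of blood cells that serves the oxidase of neutrophils. Its gene (Entrez 19354) spans chr15:78559169-78572783 on the same chromosome as Ncf4. The WT libraries held 48571, 41041 and 45461 normalized counts, and the Stat3β TG libraries 49829, 49087 and 40398. The groups overlapped throughout, and the lowest library of all 6 was Stat3β TG 3. The means were 45024 ± 3784 (SD, n = 3) and 46438 ± 5244 (SD, n = 3). The log2 fold change was 0.04 (SE 0.17, limma adjusted p = 0.935), and its interval of −0.34 to 0.42 corresponds to a fold of 0.789 to 1.34. The sign of this difference turned under quantile normalization, to −0.09.

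**Figure D1:**
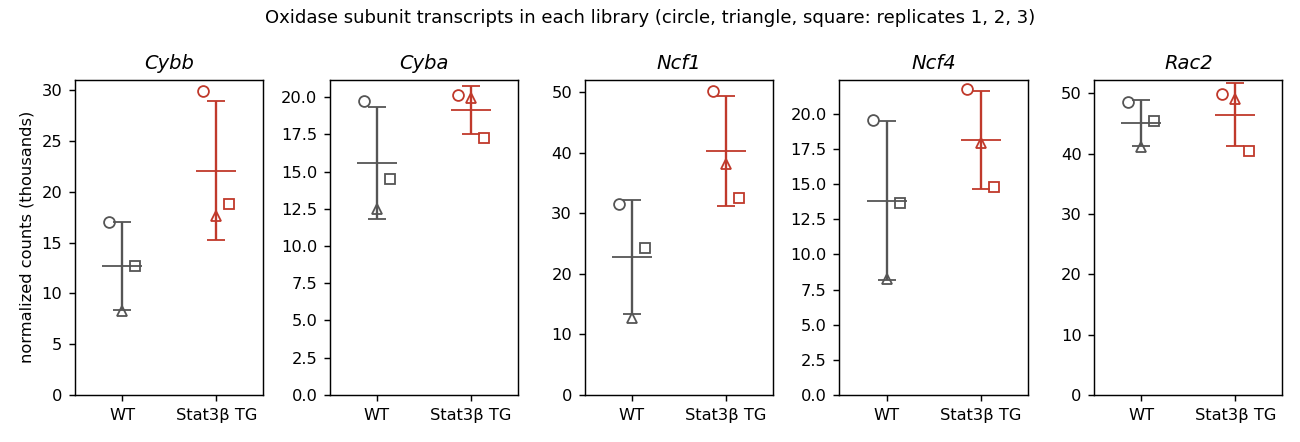
Normalized counts (linear axis from 0) of each subunit gene in the 3 WT and 3 Stat3β TG libraries; points are libraries, horizontal bars are means and whiskers are SDs. Cybb and Ncf1 are the genes without overlap between groups, and WT 2, the triangle, is the lowest WT library in all 5 panels.

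Of the 5 members, 2 had an unadjusted limma p under 0.05 with a higher level in Stat3β TG, where 3.56% of all genes tested did. The same 2, Cybb and Ncf1, had every Stat3β TG library above every WT library, as did 5.87% of all genes tested. With 5 genes these shares compare small counts with a background and carry no test. The median log2 fold change of the members was 0.46, beside 0.01 over all genes tested, of which 51.4% were higher in Stat3β TG.

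**Figure D2:**
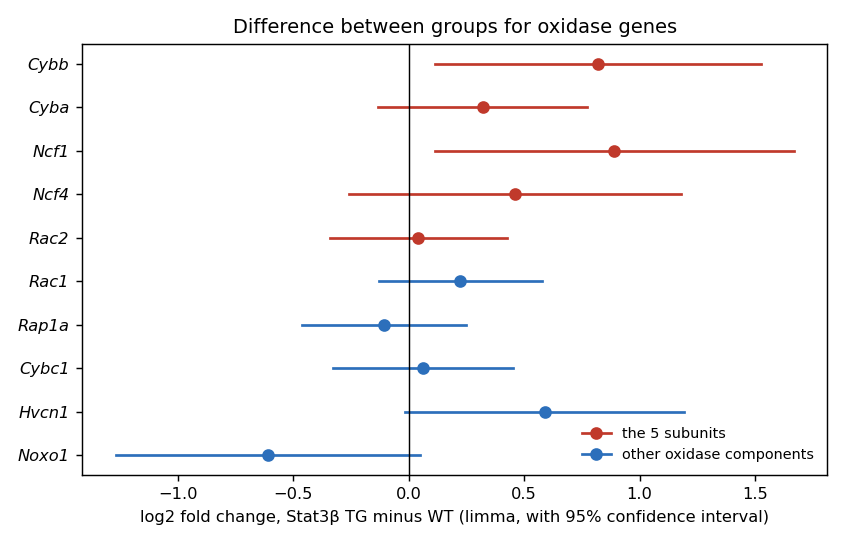
Log2 fold changes (Stat3β TG minus WT) with 95% confidence intervals from limma for the 5 subunits and for the other oxidase components named in the text. The intervals of Cybb and Ncf1 lie above 0, from 0.11 upward, before any adjustment for the number of genes, and the other 8 reach across 0.

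The subunits ranked the libraries in a similar order within the groups as well as between them. WT 1 was the highest and WT 2 the lowest WT library for all 5 genes, and WT 2 was the lowest of all 6 libraries for 4 of them, the exception being Rac2. Stat3β TG 1 was the highest of the 6 for all 5, and Stat3β TG 3 the lowest Stat3β TG library for 4, the exception being Cybb. The share of all genes tested that rank the libraries this way was not computed. Averaged over the 5 genes, the log2 level minus its mean over the libraries was 0.17, −0.73 and −0.20 in WT 1 to 3 and 0.51, 0.21 and 0.03 in Stat3β TG 1 to 3. WT 1 was therefore above Stat3β TG 3 on this scale.

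How far a gene moved across libraries differed among the members. The SD of the log2 level over the 6 libraries was 0.676 for Ncf1, 0.617 for Cybb, 0.501 for Ncf4, 0.287 for Cyba and 0.134 for Rac2, and its median over all genes tested was 0.317. Rac2 and Cyba were thus steadier than the middle gene tested. That median includes genes of far lower level, and genes of a like level were not compared. Within WT alone, the highest library exceeded the lowest 2.46-fold for Ncf1 and 1.18-fold for Rac2.

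**Figure D3:**
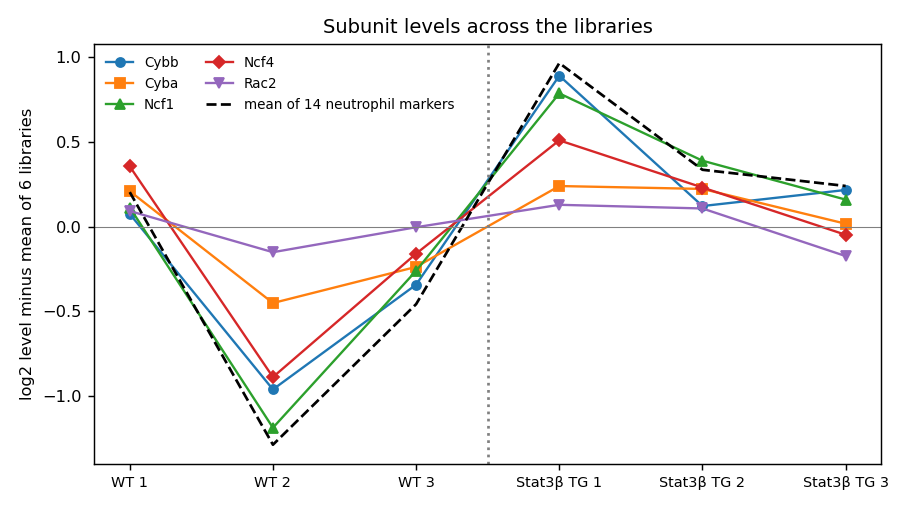
Log2(normalized count + 1) of each subunit gene minus its mean over the 6 libraries, with the mean of the 14 neutrophil marker genes as a dashed line; lines join the libraries only to guide the eye, since replicates have no order. WT 2 is lowest for every line except that of Rac2, and Stat3β TG 1 is highest for every line.

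Ratios between members show which subunits kept step. Over the 10 pairs the profiles of Ncf1 and Cybb lay closest, with a root mean square distance of 0.156 in log2 units over the 6 libraries, and those of Ncf1 and Rac2 lay farthest apart at 0.542. The Ncf1 to Cybb ratio of normalized counts was 1.85, 1.54 and 1.91 in the WT libraries against 1.67, 2.17 and 1.73 in Stat3β TG, and the groups overlapped (exact two-sided permutation p = 0.7). The Ncf1 to Rac2 ratio took the values 0.647, 0.311 and 0.534 in WT, and in Stat3β TG the values 1.01, 0.776 and 0.804, without overlap.
Between the cytosolic partners p47phox and p40phox, the Ncf1 to Ncf4 ratio was 1.61, 1.55 and 1.77 in the WT libraries against 2.31, 2.12 and 2.20 in Stat3β TG. In all, 5 of the 10 ratios did not overlap between groups. Besides Ncf1 to Rac2 and Ncf1 to Ncf4, these were Cybb to Cyba, Cybb to Rac2 and Ncf1 to Cyba. All 5 have Cybb or Ncf1 as numerator, the members whose own levels did not overlap, so the count partly restates that result. The share of such ratios among other pairs of genes was not computed. Each of the 5 had an exact permutation p of 0.1, the smallest that 20 assignments of 6 libraries allow, and an adjusted value of 0.2 over the 10 pairs. The ratios share genes and are not independent of each other.

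Levels can be compared between genes only per transcript length. Per kilobase of RefSeq mRNA, mean levels in WT fell in the order Cyba (20925 ± 5036 normalized counts per kb, SD, n = 3), Rac2 (14820 ± 1246), Ncf4 (9445 ± 3859), Ncf1 (8262 ± 3410) and Cybb (2669 ± 918). In Stat3β TG they were 25698 ± 2150 for Cyba, 15286 ± 1726 for Rac2, 14568 ± 3273 for Ncf1, 12400 ± 2386 for Ncf4 and 4652 ± 1438 for Cybb. Cybb was the lowest member in 6 of 6 libraries. Ncf4 and Ncf1 differed by less than their spread and changed places between the groups, with Ncf1 above Ncf4 in the 3 Stat3β TG libraries only. In Stat3β TG, Rac2 and Ncf1 also lay within each other's range. Cyba was the highest in 6 of 6 libraries on this length and in 4 when all annotated exons were counted, so its place above Rac2 depends on the length used.

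Rac1, the widely expressed relative of Rac2, averaged 8760 ± 870 normalized counts in WT against 10234 ± 1177 with the transgene (SD, n = 3), a log2 fold change of 0.22 (limma adjusted p = 0.675). Rac2 exceeded Rac1 5.26-, 4.42- and 5.86-fold in the WT libraries and 5.38-, 4.96- and 3.50-fold in the Stat3β TG libraries, on normalized counts not divided by length. These ratios overlapped (exact two-sided permutation p = 0.6). Rap1a, a small GTPase that copurifies with cytochrome b558, was at 1851 ± 71.3 and 1730 ± 239. Cybc1, a chaperone needed for the gp91phox and p22phox pair to assemble, was at 5465 ± 795 and 5703 ± 834, and its groups overlapped.

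Hvcn1, the voltage-gated proton channel that balances the charge the oxidase moves, had WT libraries at 1879, 1023 and 1629 and Stat3β TG libraries at 2820, 1947 and 1943 normalized counts. Its groups did not overlap, and its log2 fold change was 0.59 (limma adjusted p = 0.668). Noxo1, the relative of p47phox that serves the NOX1 oxidase of epithelia, went the other way, with 213, 319 and 228 in the WT libraries against 164, 179 and 149 in Stat3β TG (log2 fold change −0.61, limma adjusted p = 0.668). Both failed the adjusted test. The remaining non-phagocyte oxidase genes of the list were near background: Noxa1 and Nox3 were listed at 0 in all 6 libraries, and the highest value of any of the 8 untested genes was 19.0.

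Around the oxidase, 5 lists of 92 genes covered its other components, the signalling that activates it, the supply of NADPH, the handling of superoxide and peroxide, and myeloid regulators. Of their 82 tested genes, 0 passed the adjusted limma test and 2 had an unadjusted p under 0.05, both higher in Stat3β TG, beside 3.56% of all genes tested. In all, 53 of the 82 had a positive log2 fold change, beside 51.4% of all genes, and their median was 0.10.

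Among the 25 tested genes of activation signalling, 15 were higher in Stat3β TG, with a median log2 fold change of 0.16. Pik3r5, the regulatory subunit of the phosphoinositide 3-kinase downstream of chemoattractant receptors, was at 1807, 1305 and 777 in the WT libraries against 2608, 2050 and 2210 in Stat3β TG (log2 fold change 0.90, unadjusted limma p under 0.05, adjusted p = 0.668). Its groups did not overlap. Pak1, a kinase that Rac activates, was at 3244 ± 1388 and 4594 ± 370 (SD, n = 3), and Vav1, an exchange factor that loads Rac with GTP, at 12457 ± 1329 and 14680 ± 543. All Vav1 values in Stat3β TG lay above those in WT, while WT 1 lay within the Stat3β TG range for Pak1.

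The NADPH supply genes had the largest median of the 5 lists, 0.25, with 8 of 9 tested genes higher in Stat3β TG. G6pdx, which encodes the first enzyme of the pentose phosphate pathway, was at 11139, 4448 and 7889 in the WT libraries against 13833, 10226 and 8848 in Stat3β TG (log2 fold change 0.56, limma adjusted p = 0.668). Its libraries fell in the same pattern as those of Ncf4, with WT 2 lowest and WT 1 inside the Stat3β TG range. Pgd, the next NADPH-making enzyme of that pathway, was at 24430 ± 8914 and 32224 ± 1958 (SD, n = 3), and the NAD kinase gene Nadk at 6715 ± 1793 and 8681 ± 1488. The groups of all 3 genes overlapped.

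Of 25 genes that handle superoxide and peroxide, 15 were higher in Stat3β TG and the median log2 fold change was 0.04. Hmox1, which encodes the inducible enzyme that breaks down haem, was at 730, 816 and 896 in the WT libraries against 1074, 1001 and 1296 in Stat3β TG. The groups did not overlap (log2 fold change 0.46, unadjusted limma p under 0.05, adjusted p = 0.668). The catalase gene Cat was at 2852 ± 592 and 3679 ± 112 (SD, n = 3) without overlap, and the peroxiredoxin gene Prdx5 at 15861 ± 5002 and 20245 ± 1700 with overlap.

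Of 16 regulators known to act on oxidase genes, 10 were higher in Stat3β TG, with a median log2 fold change of 0.05. Irf8, a partner of PU.1, averaged 6084 ± 2866 (SD, n = 3) in WT and 9461 ± 4867 (SD, n = 3) in Stat3β TG. Cebpe, a factor of late granulocyte maturation, averaged 5883 ± 3556 and 8054 ± 2353. The groups overlapped for both. Spi1, which encodes PU.1, was at 11588 ± 575 and 12750 ± 1272 normalized counts, with a log2 fold change of 0.13 (limma adjusted p = 0.751). Stat3 was at 11683 ± 4086 in WT and 9670 ± 1555 in Stat3β TG (log2 fold change −0.23, limma adjusted p = 0.771); gene-level counts do not separate the β form from the full-length one, so they do not check the transgene.

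**Figure D4:**
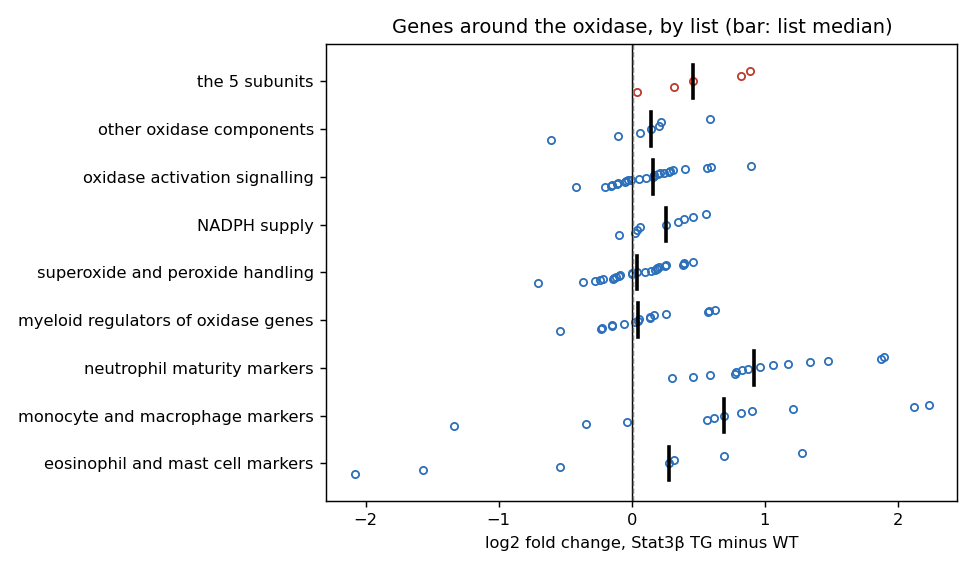
Log2 fold changes (Stat3β TG minus WT) of the tested genes of 9 lists; circles are genes, black bars are list medians and the dashed line is the median of all genes tested. The 5 subunits have a median of 0.46 the neutrophil maturity markers one of 0.92 and the monocyte and macrophage markers one of 0.69, while the lists around the oxidase lie between 0.04 and 0.25.

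The oxidase genes are expressed by maturing neutrophils, and markers of neutrophil maturity moved in the same direction across the libraries. All 14 such markers had a positive log2 fold change, beside 51.4% of all genes tested, with a median of 0.92. Of these, 6 had an unadjusted limma p under 0.05, beside 3.56% of all genes higher at that p, and 0 passed after adjustment. DESeq2 on all 6 libraries called Cd177 (adjusted p = 0.00356). The sum of their normalized counts came to 415427, 125372 and 340698 in WT 1 to 3, and for Stat3β TG 1 to 3 to 626866, 441911 and 416152. WT 2 was lowest and Stat3β TG 1 highest, as for the mean of the 5 subunits, and WT 1 nearly reached Stat3β TG 3. Cd177, a surface protein of neutrophils, went from 3850 ± 990 to 11017 ± 4510 (SD, n = 3), the collagenase gene Mmp8 from 1764 ± 608 to 3606 ± 749, and the G-CSF receptor gene Csf3r from 3920 ± 1433 to 6478 ± 1179. The part of neutrophil maturity in the subunit values was not tested.

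Other phagocytes also use this oxidase. Of 11 tested monocyte and macrophage markers, 8 were higher in Stat3β TG and 3 lower, and 0 passed the adjusted limma test. At an unadjusted limma p under 0.05 there was 1 marker, and it was lower in Stat3β TG. The median log2 fold change of the 11 markers was 0.69. Their summed level ran from 60751 to 65566 in WT and from 57671 to 95615 in Stat3β TG. Cx3cr1 was uneven within both groups, from 51.4 to 1586 in WT and from 738 to 4013 in Stat3β TG, and Mrc1 stayed at or below 22.8. DESeq2 called Cx3cr1 without WT 1 (adjusted p = 0.0467) and not with all 6 libraries (adjusted p = 0.740). The summed eosinophil and mast cell markers ran from 11952 to 47473 in WT and from 10002 to 16275 in Stat3β TG. The tested genes of this list were split, with 4 of 7 higher in Stat3β TG and 3 going the other way. By limma their middle value was 0.28 in log2 units, while by edgeR it was −0.29 and by DESeq2 −0.26. Prg2, the eosinophil major basic protein gene, was at 36893, 8375 and 28343 in the WT libraries against 7055, 4094 and 4024 in Stat3β TG, without overlap. DESeq2 on all 6 libraries called it lower in Stat3β TG (log2 fold change −2.28, adjusted p = 0.00185), and limma did not (−2.08, adjusted p = 0.668). Prg2 alone held most of the summed level in each WT library, so the sum mainly follows that gene. Epx reached 2045 in WT 1 and at most 106 elsewhere. Cpa3 overlapped between groups, with a log2 fold change of 0.69. The part of these cells in the subunit values was not tested.

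Each subunit gene had at least 8253 normalized counts in every library, and lists of lymphoid, erythroid and platelet markers summed to less than that. These counts are not divided by length, and how much such cells add to the subunit levels was not tested. The T and NK list summed to between 219 and 1711 in WT and between 862 and 1167 in Stat3β TG, with Cd3e listed at 0 in every library. All 7 tested genes of that list had a positive log2 fold change, as the neutrophil markers did. Their median was 1.07, at these low levels, and 0 passed the adjusted limma test. The B lineage list summed to at most 2102, most of it Cd79b, and the megakaryocyte and platelet list to at most 2534. The erythroid list summed to at most 305, with the globin genes Hba-a1, Hbb-bs and Hbb-bt listed at 0. The endothelial and stromal list was not low on this scale and reached 9242 in WT 3. Pdgfrb averaged 3772 ± 1526 (SD, n = 3) in WT against 2015 ± 127 (SD, n = 3) in Stat3β TG. Of the 4 tested genes of this list, 3 were higher in Stat3β TG and 1, Pdgfrb, was lower. Their median log2 fold change was 0.49. Among those higher, Col1a1 reached at most 78.3 normalized counts and Cxcl12 at most 124.

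WT 1 stood apart from the other WT libraries, and the group difference depended on which WT libraries were used. On the first principal component of all genes, which held 47.4% of the variance, WT 1 lay at −38.3 beside Stat3β TG (−31.4 to −16.3), while WT 2 and WT 3 lay at 64.4 and 49.7. Reads per library ran from 21809788 to 51934498, and each member had between 6097 and 74974 reads in every library, so counting error is small beside the spread between libraries.

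Without WT 1 the limma log2 fold changes were 1.06 for Cybb, 1.17 for Ncf1, 0.75 for Ncf4, 0.50 for Cyba and 0.10 for Rac2. The adjusted p was 0.0856 for Cybb and 0.0821 for Ncf1, and 0 of 5 members were called, beside 1.60% of genes called higher. On the same 5 libraries DESeq2 called Cybb (log2 fold change 1.07, adjusted p = 0.00742), Ncf1 (1.12, adjusted p = 0.00686) and Cyba (0.51, adjusted p = 0.0220), 3 of 5 members, beside 9.49% of its genes called higher, while edgeR called 0 members. With all 6 libraries DESeq2 called 0 members and 0.0757% of genes higher. Against WT 2 alone limma called 1 member, Ncf1 (log2 fold change 1.63, adjusted p = 0.0358), beside 4.43% of genes called higher.

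Left with WT 1 alone as the control, the differences shrank or turned. The limma log2 fold changes were then 0.33 for Cybb and 0.33 for Ncf1, −0.05 for Cyba, −0.12 for Ncf4 and −0.07 for Rac2, and none of the 5 was called. Leaving out only WT 2 gave 0.54 for Cybb, 0.52 for Ncf1, 0.17 for Cyba, 0.13 for Ncf4 and −0.02 for Rac2. Cybb and Ncf1 were higher in Stat3β TG in each of these limma fits. Their groups did not overlap, so leaving out libraries could not change that direction, and only the size of the difference is informative. Neither passed the limma test without WT 1 or without WT 2. The direction of the other members was not kept.

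**Figure D5:**
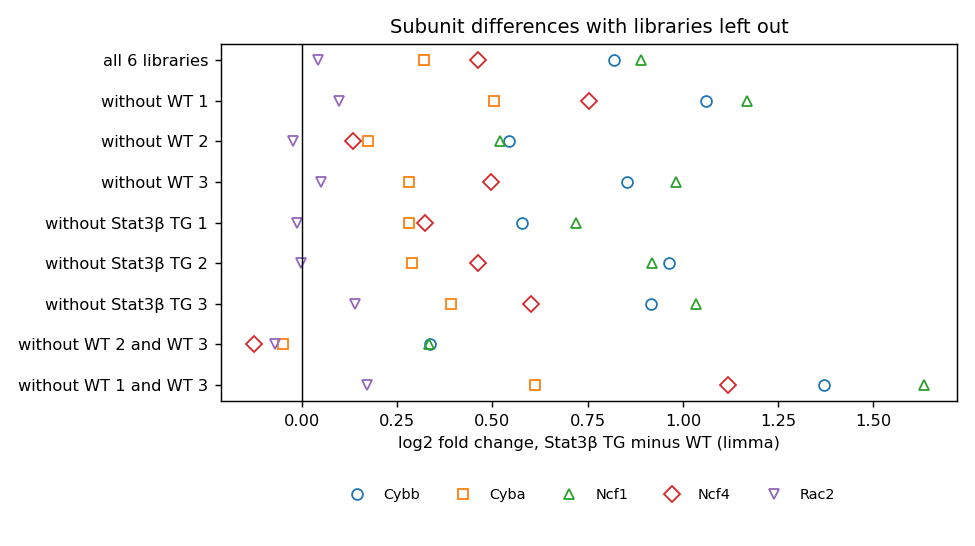
Limma log2 fold changes (Stat3β TG minus WT) of each subunit gene with all 6 libraries and with the named libraries left out. Ncf1 runs from 0.33 to 1.63 and Cybb from 0.33 to 1.37, while Rac2 stays near 0.

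The genes whose profiles over the 6 libraries lay nearest to each member were taken from 10254 tested genes with a mean of at least 100 normalized counts. For Cybb these were Rasgrp4, an exchange factor for Ras in myeloid cells (root mean square distance 0.108 in log2 units), Ptpru (0.113) and Niban1 (0.129). For Ncf1 they included Pi16 (0.0953) and Tm6sf1 (0.114). For Ncf4 they were Paqr4 (0.0730), G6pdx (0.0733) and Mlst8 (0.0747), so a gene of the NADPH supply list was among the nearest. For Cyba they were Plin3 (0.0340), Ggct (0.0463) and Pgp (0.0486), and for Rac2 Qpctl (0.0328), Ptov1 (0.0342) and Klhl36 (0.0387). Cyba and Rac2, with the shortest distances, are also the members that varied least. All of these distances were shorter than the 0.156 between Ncf1 and Cybb, the closest members, though picked from far more genes. Profiles like those of the members were thus not particular to the subunits. The distances are descriptions over 6 libraries, with no test.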

How the data were processed

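RNA sequencing measured sorted mouse leukaemic blasts in 3 WT and 3 Stat3β TG libraries, grouped by their titles. The deposited table holds the authors' normalized counts per gene, treated as a signal with no values below 0, made with FastQC, STAR and DESeq2 on GRCm38 (mm10), per the submitters' processing notes. For versions, the counter, strand handling and annotation, the entry is: not given in the sources used here. All 146724 values were whole multiples of 1 step per library within 0.001, so whole reads were recovered (100% of values).

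Genes with at least 10 normalized counts in at least 3 libraries were tested with limma 3.58.1 (R 4.3.3, trend and robust moderation, group only, two-sided) on log2(value + 1). This scale understates changes of low genes. edgeR 4.0.16 and DESeq2 1.42.0 on the recovered reads were alternatives. Scripts were tested on simulated data. All pairs of libraries differed beyond sampling noise (chi-square per gene 62.3 to 212).

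Symbols came from RefSeq (GRCm38.p6, 24376 of 24454 IDs), lengths from GENCODE and promoters from RefSeq. The members and all lists were chosen with earlier results of these data known. Named were the members, their close partners, up to 3 genes per list with the smallest p, sex-linked genes and the 3 nearest profiles per member; Spi1 and Stat3 were added after their values were seen. A few genes that this choice would name are left unreported. For lymphoid, erythroid and megakaryocyte lists only levels and the leading genes are given, with directions added for the T and NK list.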

Additional observations from a re-analysis of the deposited data

How the results depend on the processing

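Limits are 3 libraries per group, the spread among the WT libraries and the split in sex-linked transcripts. Xist was at 42699 and 45196 in WT 1 and WT 3, at 835 in WT 2 and at most 71.6 in Stat3β TG. That split partly coincides with the groups for every gene compared here, and its part in the differences was not tested. Pseudocounts of 0.5 and 5, no filter, a mean filter of 50, edgeR and the replicate block left 0 members called. The labels do not say whether same-numbered samples are paired. Same-numbered deviations from the group means correlated at 0.14, 0.10 and −0.11. WT 1 and WT 2 correlated best with their same-numbered partners, and WT 3 with Stat3β TG 2 (0.14). Correlations this small, over 3 libraries per group, cannot decide whether the samples are paired. With a replicate block limma called 0 genes and its adjusted p for Cybb was 0.658. The fits of edgeR with that block, and of edgeR and DESeq2 without WT 1, were chosen after seeing the data.

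Genes called over the whole table, 0 in the full fit, were 17 by DESeq2, 8 without WT 2 and WT 3, 736 without WT 1 and WT 3, 119 by edgeR without WT 1 and 2027 by DESeq2 without WT 1. Leaving out 1 library gave 0 to 296, the highest without WT 1, and 5 without WT 2. Members called were 1 without WT 1 and WT 3 (Ncf1, 1.63) and 3 by DESeq2 without WT 1 (Cybb 1.07, Ncf1 1.12, Cyba 0.51). Genes called in the surrounding lists were 2 and 10 in those fits, and 0 to 1 with 1 library left out.

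Without WT 2 and WT 3 the log2 fold change reversed for Cyba (−0.050), Ncf4 (−0.12), Rac2 (−0.071), Cybc1 (−0.17), Pak1 (−0.027), Pgd (−0.089), G6pdx (−0.048), Prdx5 (−0.087), Irf8 (−0.077), Cebpe (−0.34), Mrc1 (−0.048) and Cx3cr1 (−0.16). Rac2 also reversed under quantile normalization (−0.088) and with 1 library left out, from −0.023 without WT 2 through −0.012 without Stat3β TG 1 to −0.0016 without Stat3β TG 2, and reached 0.14 without Stat3β TG 3. Cybc1 reversed without WT 3 (−0.017) and without Stat3β TG 3 (−0.056), and reached 0.18 without WT 1. Epx reversed without WT 1, at 0.16 by limma and 0.32 by both edgeR and DESeq2, and at 0.65 without WT 1 and WT 3. By limma with 1 library left out it ran from −2.68 to 0.16. The cause of these changes was not tested. Of 788 recomputed values, 717 were classed as unchanged. For a fold change this meant the same direction and side of the threshold, whatever its size. Cybb at 0.33 without WT 2 and WT 3 and at 1.37 without WT 1 and WT 3 were both in this class. Counts of genes had to stay equal or nearly so. Values where no test applied had to move by less than the spread between WT libraries.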
